A study of Drosophila melanogaster with 2 samples.

Results

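The members described here are the intergenic binding sites of Hr51 at an intermediate distance from genes: reproducible ChIP-seq summits that lay in no gene body and over 1000 and up to 5000 bp from the nearest transcription start site (TSS) of any gene. They were chosen by position alone and numbered 660 of 7229 reproducible summits (9.13%, 95% Wilson interval 8.49 to 9.82%). Binding was measured in Drosophila melanogaster strain Dhr51-GFP, a stable transgenic line with GFP fused to the C-terminus of Hr51. DNA was recovered with an anti-GFP antibody from mixed-sex embryos aged 14 to 16 h, sheared by sonication to 200 to 800 bp. Biological replicates 1 and 3 form 1 group, with no untreated or mutant group to compare. Whole organisms were used, so the cells that gave a peak are not known, and the tagged protein stands for Hr51. Signal below is the authors' deposited score for a peak. It came from the pooled replicates for the reproducible list, which held the 7229 pooled peaks of highest signal, and from 1 library for each replicate list.

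Hr51 (unfulfilled) belongs to the NR2E group of nuclear receptors and in flies is known for its part in mushroom body axons and in clock neurons. Nuclear receptors bind DNA through zinc fingers that read short core sites. In the compact fly genome, enhancers lie in introns and in the DNA between genes as well as beside start sites, and an intergenic enhancer need not act on the nearest gene. The nearest gene is therefore given here as a position and not as a target.

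The DNA under the strongest members is shown because, over all members, base composition at the summit differed from that of the DNA beside it. The strongest members were not compared with their own flanks as a set. The windows below reach 50 bp to either side of the summit, on the + strand of dm6, from the RefSeq genome, for the 8 members of highest signal outside 1 chromosome arm, whose sequence is not shown; 3 stronger members, at CG8160, CG33453 and CycB, are left out for that reason. They lie at chr2L:1649415-1649515 (nearest TSS chinmo), chr2L:1643373-1643473 (lncRNA:CR45695), chr2L:2202353-2202453 (CG31668), chr3R:12403077-12403177 (DNAlig3), chr3R:14053552-14053652 (foxo), chr3R:8355707-8355807 (stck), chr2L:12006737-12006837 (Rh5) and chr3R:16221837-16221937 (lncRNA:CR45643). Capitals mark TAATTA, the core site of many homeodomain proteins and the motif found more often at summits than in flanks.
chinmo: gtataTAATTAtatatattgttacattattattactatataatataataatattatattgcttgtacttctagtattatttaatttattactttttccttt
lncRNA:CR45695: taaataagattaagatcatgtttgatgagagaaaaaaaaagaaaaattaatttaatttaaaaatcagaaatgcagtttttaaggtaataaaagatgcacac
CG31668: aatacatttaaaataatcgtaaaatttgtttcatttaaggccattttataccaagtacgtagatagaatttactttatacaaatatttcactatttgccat
DNAlig3: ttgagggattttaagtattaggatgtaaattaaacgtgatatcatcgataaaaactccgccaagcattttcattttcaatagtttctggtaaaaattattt
foxo: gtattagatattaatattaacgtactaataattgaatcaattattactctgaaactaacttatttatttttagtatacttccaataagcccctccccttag
stck: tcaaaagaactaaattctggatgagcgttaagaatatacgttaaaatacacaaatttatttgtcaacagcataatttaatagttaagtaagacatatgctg
Rh5: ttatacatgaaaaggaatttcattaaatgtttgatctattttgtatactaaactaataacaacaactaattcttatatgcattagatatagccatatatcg
lncRNA:CR45643: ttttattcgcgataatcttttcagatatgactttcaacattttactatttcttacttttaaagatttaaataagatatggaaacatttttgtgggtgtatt

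TAATTA stood in the window at chinmo and in none of the other 7. Of the 20 strongest members, shown or not, 5 held it. Long runs of A and T fill much of these windows, and the one at chinmo held 12.9% G and C. Among the 20 strongest members the G and C content of the window ranged from 12.9% to 56.4%, with a median of 26.2%. The 56.4% is that of the member at CG8160, the second strongest, whose window is not shown.

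Reproducible summits were slightly sparser in this DNA than in the genome as a whole, which turned the other way over all 30000 pooled peaks. The rule covers 13.5 Mb, 10.1% of the 6 chromosomes and arms, and the members came to 48.8 per Mb, 0.903 of the 54.0 per Mb over all DNA. That ratio was 0.991 with protein-coding genes alone and 1.19 over all pooled peaks. The highest 7229 peaks of replicate 1 put 632 summits in the same DNA (46.7 per Mb), and those of replicate 3 put 665 (49.1 per Mb). Introns at the same distance from a TSS held 75.5 summits per Mb and intergenic DNA over 5 kb from a TSS held 19.6. DNA within 1 kb of a TSS held 107. Both replicates kept this order, with 71.3 and 74.7 per Mb in introns and 17.6 and 19 in the more distant intergenic DNA for replicates 1 and 3. These densities are descriptions with no test.

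Density was highest in the first kilobase of the range and differed little beyond it. It was 57.2 members per Mb from 1 to 2 kb, 43.6 from 2 to 3 kb, 46.4 from 3 to 4 kb and 43.3 from 4 to 5 kb. A total of 419 members (63.5%, interval 59.7 to 67.1%) lay upstream of the nearest TSS on the strand of its gene, where 60.8% of the eligible DNA lies. Upstream DNA held 50.9 members per Mb and downstream DNA 45.5, with 49.0 and 43.0 in replicate 1 and 52.8 and 43.4 in replicate 3. From 3 to 4 kb the order was the other way in the reproducible list, with 44.8 upstream and 48.5 downstream. There replicate 1 gave 38.3 upstream and 46.2 downstream, and replicate 3 gave 44.8 and 44.6. The order of the sides thus did not hold at each distance in the reproducible list or in replicate 1. Median signal was 241, 234, 239 and 258 in the 4 distance bins.

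**Figure D1:**
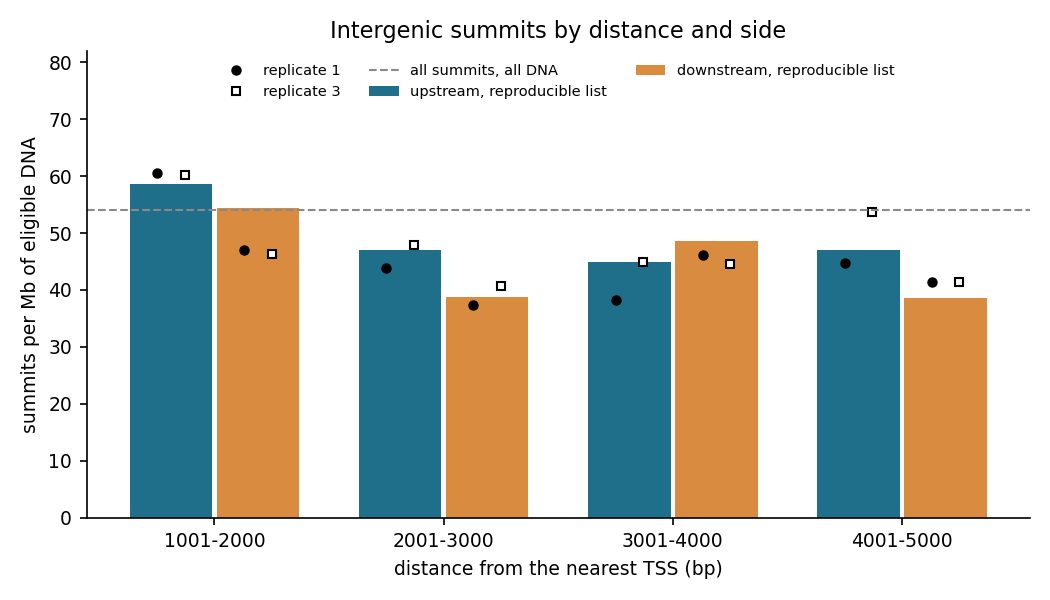
Summits per Mb of eligible DNA (y axis) by distance from the nearest TSS in bp (x axis), upstream and downstream of it; bars are the reproducible list, filled circles replicate 1 and open squares replicate 3, each with its highest 7229 peaks, and the dashed line is the density of all summits at 54.0 per Mb. The bars stand highest from 1 to 2 kb, at 58.6 upstream and 54.4 downstream, where both replicates gave fewer downstream summits (47.1 and 46.4 per Mb).

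Signals just inside and just outside the distance limits overlapped. The members just inside 1000 bp were at Cad89D (1004 bp, signal 575), PKD (1004 bp, 334) and CG42450 (1010 bp, 160). The intergenic summits just outside it were at Lim1 (997 bp, 235), lncRNA:CR46351 (994 bp, 207) and lsn (986 bp, 356). At the upper limit, lncRNA:CR44443 (4989 bp, 308), Tollo (4981 bp, 256) and CG13171 (4965 bp, 330) were just inside. Obp47a (5021 bp, 140), CG11374 (5027 bp, 150) and lncRNA:CR45286 (5070 bp, 264) were just outside.

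Most members were found in each replicate. A replicate 1 peak overlapped 638 members (96.7%), a replicate 3 peak 658 (99.7%), and peaks of both 637. The reproducible list was made from these same replicates, so a high share is in part built in. Peaks of both replicates overlapped 96.5% of members and 98.4% of intronic summits 1 to 5 kb from a TSS, a difference that missed the threshold (Fisher's exact test, adjusted p = 0.074). It passed from 2 kb (95.7% and 98.7%, adjusted p = 0.038 in Fisher's exact test, with 0.038 to 0.57 over 4 alternatives). Over the 637 members, log2 signal in the replicates had a Pearson's r of 0.836 and a Spearman's rho of 0.781, a description of peaks that share their 2 libraries. Median signal was 115.3 in replicate 1 and 134 in replicate 3, and 43 of the 637 (6.75%) had a replicate ratio more than 2-fold from the median ratio of all summits, against 507 of 7036 (7.21%) for all reproducible summits. A single member had a peak in neither replicate list. It lay 3602 bp upstream of Eaf6, which encodes a subunit of histone acetyltransferase complexes, in the gap to Blimp-1, with a signal of 847; the nearest replicate summits were 2230 bp away in replicate 1 and 2215 bp away in replicate 3. It was singled out after its values were seen, and 2 other reproducible summits had no replicate peak.

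**Figure D2:**
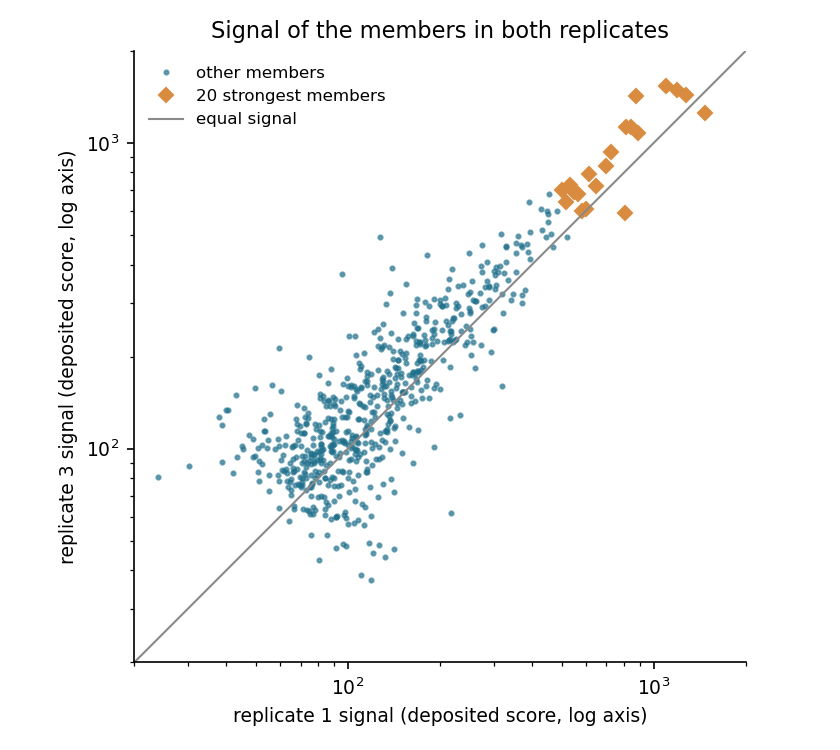
Deposited signal of the 637 members with a peak in both replicates, replicate 1 on the x axis and replicate 3 on the y axis, both on log axes; diamonds are the 20 members of highest reproducible signal and the line marks equal signal. The strongest members lie at the upper end in both replicates, and most points lie above the line, with a median log2 ratio of replicate 3 over replicate 1 of 0.25.

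In the reproducible list, members were less often among the strongest summits than intronic summits at the same distance. The median was 240 for members (range 135 to 2749), 262 for intronic summits and 220 for intergenic summits over 5 kb away. Of the members, 112 (16.97%, interval 14.3 to 20.02%) were among the highest 25% of all reproducible signals, against 353 of 1521 intronic summits (23.2%, 21.2 to 25.4%; Fisher's exact test, adjusted p = 0.024). The share was 17.4% against 24.9% in replicate 1 and 17.1% against 22.9% in replicate 3. The call held in these 2 of 6 alternatives. Over the 6, the adjusted p was 0.0037 to 0.32 in Fisher's exact test. The call was lost when chromosome X was left out (16.9% of members and 21.3% of intronic summits, Fisher's exact test, adjusted p = 0.25), an alternative added after seeing the data, and with protein-coding genes alone (a difference of -4.56 percentage points, adjusted p = 0.17). Against intergenic summits over 5 kb away, of which 44 of 393 (11.2%) were in the highest 25%, the difference of 5.77 percentage points missed the threshold (Fisher's exact test, adjusted p = 0.074). With protein-coding genes alone it passed (19.3% and 13.3%, adjusted p = 0.036 in Fisher's exact test), and over 6 alternatives the adjusted p was 0.036 to 1. Another reproducible summit lay within 1 kb of 140 members (21.2%), against 26.8% of intronic and 15.3% of distant intergenic summits, and neither difference passed (Fisher's exact test, adjusted p = 0.066 and 0.10). Both passed with the highest peaks of replicate 3 alone, where the share was 20.6% of members, 27.6% of intronic summits (Fisher's exact test, adjusted p = 0.012) and 12.8% of distant intergenic ones (0.022). The difference from intronic summits also passed with protein-coding genes alone (21.4% and 27.8%, adjusted p = 0.035 in Fisher's exact test). Over 6 alternatives the adjusted p was 0.012 to 1 against intronic and 0.022 to 0.74 against distant intergenic summits. By the position rule, a summit over 5 kb from a TSS cannot have a neighbour that lies within 1 kb of a TSS, and a member can. The difference from distant intergenic summits is thus not independent of the rule, and the part of the rule in it was not measured. Of the 50 tests against the other classes, 2 passed.

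The other difference that passed concerned the X chromosome. On X lay 74 members (11.2%, interval 9.03 to 13.8%), against 378 intronic summits (24.9%, 22.7 to 27.1%; Fisher's exact test, adjusted p = 3.6e-12). The shares were 12.0% against 25.3% in replicate 1 and 10.98% against 24.9% in replicate 3. X holds 14.6% of the eligible intergenic DNA and 19.9% of the intronic DNA of that range. Per Mb, X held 37.5 members and 94.6 intronic summits, its intronic density being above that of each other arm. Against intergenic summits over 5 kb away (13.5% on X) the difference did not pass (Fisher's exact test, adjusted p = 0.64).

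Members were densest on arm 3L. It held 201 members, or 69.7 per Mb, against 48.4 on 3R, 45.2 on 2L, 38.5 on 2R and 37.5 on X. Replicate 1 gave 64.1 per Mb on 3L and 38.1 to 45.2 on the other 4, and replicate 3 gave 69.7 and 37.0 to 47.8. Chromosome 4 had 2 members in 0.0919 Mb. Intronic summits at the same distance did not show this order: 3L held 77.8 per Mb, and the other arms 62.2 to 94.6. Intergenic summits over 5 kb away came to 22.4 per Mb on 3L and 10.05 to 26.95 on the other large arms. On 3L, 28 of the 201 members lay in the first Mb of the arm and 50 between 10 and 12 Mb. The eligible DNA of these stretches was not measured, and single Mb stretches held up to 18 members on 2L and 17 on 3R. Without 3L the density was 43.1 per Mb. The comparison of arms was made after the values were seen and was not tested.

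**Figure D3:**
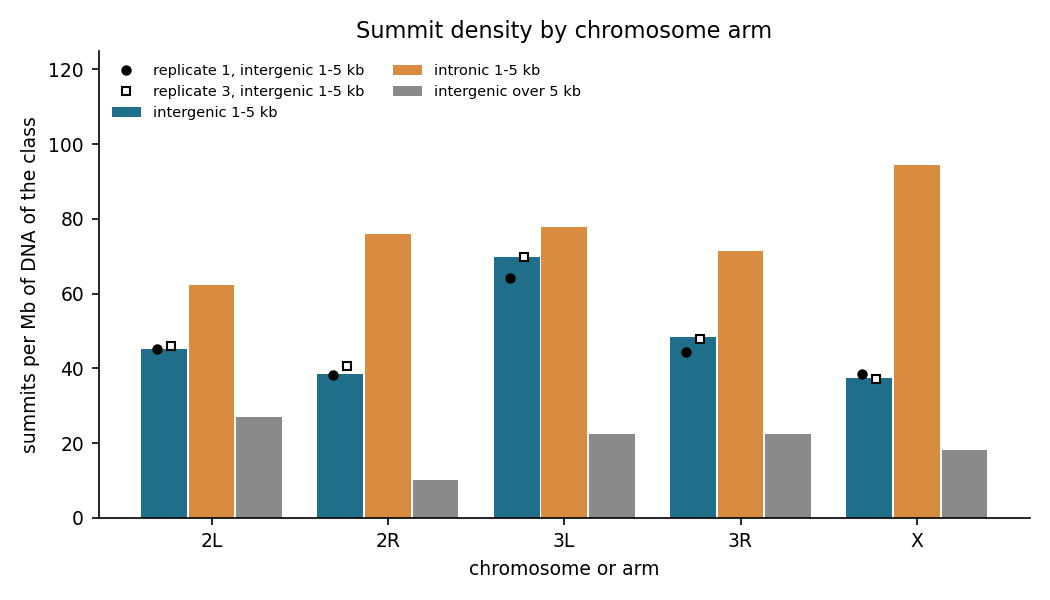
Summits per Mb of DNA of each class (y axis) on the 5 large chromosome arms (x axis), for intergenic summits 1 to 5 kb from a TSS, intronic summits 1 to 5 kb away and intergenic summits over 5 kb away; circles and squares are replicates 1 and 3 for the first class. The members stand highest on 3L, at 69.7 per Mb, and the intronic summits on X, at 94.6 per Mb.

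The members lay in 497 gaps between genes. Of these gaps 388 held 1 member, and 13 held 4 or more, 55 members together; 8 of the 13 gaps are on 3L. The median gap around a member was 8507 bp. Genes on both sides pointed away from the gap (divergent) for 194 members, in the same direction (tandem) for 327 and towards it (convergent) for 138, with median signals of 242, 243 and 227. The other 1 lay between the last gene and the end of its arm. The nearest gene edge was a 3' end for 315 members (47.7%), and 123 lay within 1 kb of one. The eligible DNA by gene direction and by nearest gene edge was not measured. These counts therefore do not show a preference for any kind of gap or edge.

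Several gaps with many members lie among noncoding RNA genes. The gaps below were picked by their member counts and are 4172 to 32964 bp long. The share of all gaps that lie beside such genes was not counted. The gap of 7669 bp between CG44362 and lncRNA:CR44363 (chr3L:11397866-11405534) held 5 members with signals from 176 to 356. The adjacent gap between lncRNA:CR44363 and CG7560 (chr3L:11406095-11425157) held another 5, from 154 to 341, and lncRNA:CR44363 was the nearest gene of 6 members, more than any other gene. The gap between tRNA:Ile-TAT-1-2 and CG13898 (chr3L:770463-803426) held 5 members (170 to 735) among 12 reproducible summits in all. Gaps with 4 members also lay at lncRNA:CR42719 (signals 225 to 1274), lncRNA:CR43883 (174 to 808), Ids (207 to 775), between CG7484 and Crtc (172 to 500.6) and between lncRNA:CR45937 and lncRNA:CR45936 (164 to 819), on 3L in each case. Crtc encodes a coactivator of CREB. Off 3L, gaps with 4 members lay beside lncRNA:CR45695 near chinmo (146 to 2684), between Teh1 and Glut4EF (148 to 207), between a tRNA-Phe gene and tal-1A (162 to 930), between Gr93a and Gr93b (209 to 457) and between Cyp4s3 and drd on X (150 to 459). The members of these 13 gaps had a peak in both replicates in every case.

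The nearest TSS belonged to a protein-coding gene for 433 members, to a noncoding RNA gene for 205 and to a tRNA gene for 18. Per Mb of eligible DNA nearest to each kind, these were 47.8, 52.6 and 97.0, and median signals were 237, 244 and 264. The tRNA figure rests on 0.186 Mb and 18 members, of which 5 lie near tRNA-Phe genes and 5 near tRNA-Ile genes. In all 532 genes were nearest to a member, 439 of them to 1.

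The genes nearest to members were also examined for summits at their own start sites. Of the 433 members nearest a protein-coding gene, 143 (33.0%) had a reproducible summit within 1000 bp of a TSS of that gene. The share was 64.0% for intronic summits at the same distance and 20.8% for intergenic summits over 5 kb away, and 23.3% of all protein-coding genes had such a summit. Several summits can share a gene, and the shares were not tested. The median distance from a member to another reproducible summit was 2918 bp, and 409 members (62.0%) had one within 5 kb.

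Where 2 signals are given together below, the first is that of replicate 1 and the second that of replicate 3. The 20 strongest members ranked from 31 to 470 in replicate 1 and from 75 to 564 in replicate 3. Of these 20, 15 lay upstream of the nearest TSS, 15 within 2000 bp of it, and 16 were nearest to a protein-coding gene. Over all 660 members, 419 (63.5%) lay upstream, 261 (39.5%) within 2000 bp, and 433 (65.6%) nearest to a protein-coding gene. The counts of the strongest members were not tested against these shares. The strongest lay 1793 bp upstream of chinmo, which encodes a BTB zinc-finger protein that sets temporal identity in neurons (2L, summit 1649465), with signals of 1277 in replicate 1 and 1436 in replicate 3. Another member near chinmo, in the gap beyond lncRNA:CR45695, was the third strongest (1189 and 1493). Both had high scores in both libraries.

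The second strongest member lay at the locus of Hr51 itself, in the gap between CG8160 and lncRNA:CR44371 (2R, summit 15329407), 1918 bp from the body of Hr51. Its signal was 1472 in replicate 1 and 1249 in replicate 3, against 2717 in the pooled list. The line carries an insertion of tagged Hr51, and whether that insertion covers this DNA is not stated in the labels; its part in the signal was not tested. No other member lay within 20000 bp of Hr51.

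Among the strongest members near genes of known function, foxo, which encodes a transcription factor repressed by insulin signalling, had a member 3343 bp upstream (843 and 1129 in replicates 1 and 3). CycB, the gene of a mitotic cyclin, had one 3338 bp downstream (809 and 1129). The member at stck, the gene of an adaptor protein of integrin adhesions, lay 1221 bp upstream (724 and 930). That at by, which encodes tensin, another integrin adhesion protein, lay 1328 bp upstream (613 and 790). Each of these 4 had the higher score in replicate 3, the direction of the median over all summits.

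Other strong members lay upstream of Rh5, a rhodopsin of photoreceptors (1366 bp; 695 and 840), snsl (1406 bp; 647 and 722) and PGRP-SA, which recognises bacterial peptidoglycan (1177 bp; 601 and 609). DNAlig3, named for a DNA ligase, had a member 1288 bp upstream (877 and 1419) between Sol1 and Cyp9f2. A summit 1508 bp upstream of lncRNA:CR45643 (807 and 588) was 3764 bp upstream of the nearest coding gene, tara, and was one whose replicate 1 signal was the higher. Besides fz, aop and bin, described below with their lists, the remaining ones were at CG31668 (1094 and 1530), CG33453 (885 and 1078), lncRNA:CR42719 (531 and 729), lncRNA:CR45303 (549 and 692) and CG4218 (518 and 638).

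Gene lists of tissues and pathways were read against a background of 2.61%, the share of the 13945 protein-coding genes that were the nearest gene of at least 1 member. Muscle and heart genes had 6 of 31 (19.4%, interval 9.19 to 36.3%), segmentation genes 4 of 25 (16.0%), epidermis, cuticle and trachea 2 of 20, neuron identity factors 4 of 45 (8.89%), signalling genes 4 of 47 (8.51%) and axon guidance genes 3 of 39 (7.69%). Many of these genes lie beside long gaps: eligible DNA per gene was 1.83 kb in the muscle list and 3.89 kb in the segmentation list, against 0.649 kb over all coding genes. Per Mb of such DNA the muscle list held 105 members, the signalling list 65.7 and the epidermal list 60.3. The axon guidance list held 51.7, the segmentation list 51.4, the neuron identity list 36.4 and all coding genes 47.8. Taken per unit of DNA, the neuron identity list was thus below the genes as a whole, and the other lists named so far were above them. The pan-neural and synaptic list (1 of 32 genes, 22.6 per Mb) and the gut and endoderm list (1 of 14, 32.3) were also below. The fat body and haemocyte list (1 of 18, 87.8) was above, and lists with no member are given further on. The values of the pan-neural, gut and fat body lists rest on 1 member each. Those of the lists before them rest on 2 to 6, with 6 in the muscle list. No list was tested.

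**Figure D4:**
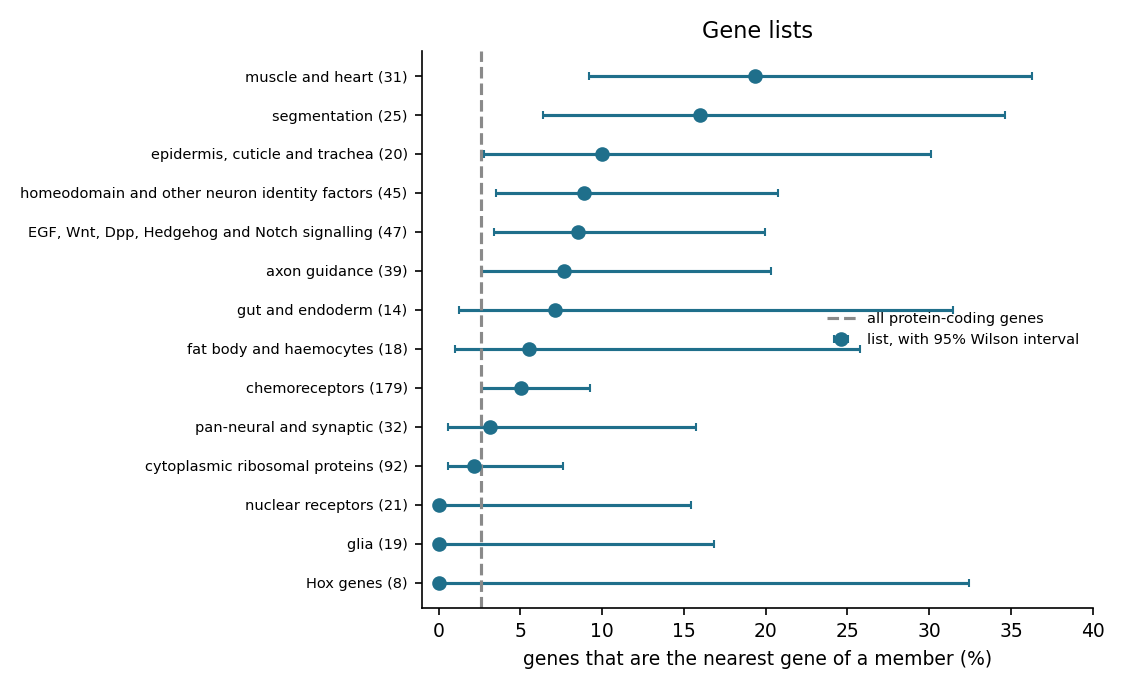
Share of the genes of each list that were the nearest gene of at least 1 member (x axis, %), with 95% Wilson intervals that cover counting of genes only and the number of genes in parentheses; the dashed line is the 2.61% of all protein-coding genes. Muscle and heart genes stand at 19.4%, and nuclear receptors, glia and Hox genes at 0.

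The muscle and heart members were of moderate strength apart from the first. bin (biniou), a forkhead factor of the visceral mesoderm, had a member 1296 bp upstream with signals of 581 in replicate 1 and 596 in replicate 3. The muscle actin genes had one each, Act57B 4059 bp upstream (203 and 245) and Act87E 2077 bp downstream (177 and 236). Lower members lay at how, an RNA-binding protein of muscle (170 and 223), lmd, a myoblast fusion regulator (144 in replicate 3 and no peak in replicate 1), and Doc2, a T-box heart factor (59.0 and 107). These 3 were named after their values were seen.

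In the signalling list, fz, a Wnt and planar polarity receptor, had a member 1766 bp upstream (566 and 680). aop, an ETS repressor below the EGF receptor, had one 1512 bp upstream (503 and 704). Weaker ones lay 4444 bp upstream of Wnt4 (85.8 and 163) and 1437 bp upstream of ths, an FGF ligand (44.9 and 102). The ths member ranked 6714 of 7229 in the reproducible list and was named after its values were seen.

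Segmentation genes with members were slp2, a forkhead factor also in the gut and endoderm list (4314 bp upstream; 392 and 640), hry, the pair-rule repressor hairy (148 and 209), D (Dichaete), a Sox factor with 2 members downstream (174 and 155, 100 and 103), and bcd, the anterior determinant (159 and 118). The weaker member at D and that at bcd were named after their values were seen. Among neuron identity factors, lola had a member 1428 bp upstream (219 and 388), and zfh2 (169 and 191), zfh1 (181 and 168) and tup (69.5 and 80.6) had weaker ones, the last named after its values were seen. In the axon guidance list these were robo2, a Slit receptor (225 and 287), Sema5c (126 and 101.1) and comm, which sorts Robo away from growth cones (119 and 37.2). VGlut, the vesicular glutamate transporter, was the pan-neural and synaptic gene with a member (93.1 and 84.5). Of the epidermal list Osi6 (106 and 110) and verm, a chitin deacetylase (91.1 and 94.4), and of the fat body and haemocyte list Sr-CI, a scavenger receptor (206 and 224), had 1 each.

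No gene of 21 nuclear receptors, 19 glial genes or 8 Hox genes was the nearest gene of a member. With 0 counted, the upper Wilson bounds of the share are 15.5%, 16.8% and 32.4%, so the lists are too short to set these apart from 2.61%. When distance was taken to protein-coding TSSs alone, an alternative added after seeing the data, 1 Hox gene was the nearest gene, and the muscle list had 7 of 31 and the segmentation list 6 of 25, against 3.51% of all coding genes.

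Chemoreceptor genes, which encode the odorant, gustatory and ionotropic receptors of sensory neurons and lie in clusters, had 16 members at 9 of 179 genes (5.03%, interval 2.67 to 9.28%). They came to 64.2 per Mb of eligible DNA. A cluster of gustatory receptor genes on 3R gave 9 of the 16, nearest to Gr93a, Gr93b or Gr93d, with signals from 137 to 597. The strongest chemoreceptor members were at Gr89a (1329 bp downstream; 355 in replicate 1 and 471 in replicate 3), Ir67b (3030 bp downstream; 280 and 337) and Gr93d (2478 bp upstream; 290 and 307). The members of 1 cluster share their surroundings and are not independent.

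The DNA at member summits was rich in A and T. In 51 bp windows the mean G and C content was 29.3% at the summit, 38.2% at 100 bp to the left, 39.6% at 100 bp to the right, and 45.3% and 46.2% at 300 bp to either side. In windows reaching 50 bp to either side the median was 28.7% at summits and 46.5% in both flanks, and 574 members (87.0%) had fewer G and C at the summit than in the right flank. Intronic summits at the same distance had medians of 29.7% and 44.6%, distant intergenic summits 28.7% and 47.5% on the right, and all reproducible summits 29.7% and 44.6%. The dip was thus present in each class.

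The same composition ran through the 6-mers. Of the 6-mers, 319 (15.3%) were called more often and 630 (30.3%) less often at summits than in flanks (exact McNemar test, adjusted p under 0.05). All 36 6-mers made of A and T alone were called more often at summits, as were 165 of the 192 with 1 G or C. With 5 G or C letters, 163 of 192 were called less often, and with 6, 31 of 36. ATATTA led, in 29.4% of summit windows and 4.70% of flanks (exact McNemar test, adjusted p = 3.6e-29), followed by AATATA (31.5% and 7.58%) and ATTTAA (36.7% and 11.1%). GCCCCC was the 6-mer called less often with the lowest p (0.758% and 8.03%). The part of base composition in the motif values below was not tested.

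The 20 motifs were searched on both strands by their letters: AAGTCA (the NR2E core site), AGGTCA (the general nuclear receptor core), GAGAG and GAGAGAG (Trl, the GAGA factor; the longer contains the shorter), CACACAC (a dinucleotide repeat), AGATAAG (the GATA factor motif), TAATTA (homeodomain), TTTATGG (Hox and caudal), TGTTTAC (forkhead), TGANTCA (AP-1), CAGCTG and CACGTG (E-boxes), the DRE motif, CGATA (BEAF), CCGGAA (ETS), ACCNGTT (grainyhead), TGGGAA (Suppressor of Hairless), ATCAAAG (the TCF motif), AGGATAA (Tramtrack) and CAGGTAG (Zelda). CGATA lies within the DRE motif. A match is a description of letters and not a bound site. The motifs were chosen with earlier results of these data known, so the p-values below are not those of a list fixed beforehand.

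TAATTA was found in 98 of 660 summit windows (14.8%, interval 12.3 to 17.8%) and in 31 flanks (4.70%, 3.33 to 6.59%; exact McNemar test, adjusted p = 1.4e-08). It peaked at the summit, in 7.27% of members within a 50 bp bin there and 2.73% at 300 bp to the left. It is one of the 36 6-mers of A and T alone, ranked 13 of them by the ratio of summit to flank (3.16, against a median of 2.84). Over all 7229 summit windows the share was 12.4%, and 5.23% in their flanks. Against intronic summits (13.1%) the member share did not differ beyond the threshold (Fisher's exact test, adjusted p = 0.64), nor against distant intergenic ones (9.16%, adjusted p = 0.066). The difference from distant intergenic summits passed in Fisher's exact test with protein-coding genes alone (15.6% and 9.83%, adjusted p = 0.035) and in the stronger 50% of peaks (17.8% and 6.11%, 0.032). Over 6 alternatives its adjusted p was 0.032 to 1.

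The other called motifs were rarer at summits. GAGAG, read by the GAGA factor, stood in 6.97% of summit windows and 12.9% of flanks (exact McNemar test, adjusted p = 0.0026). Over all reproducible summits it stood in 8.30% of summit windows and 15.8% of flanks, and in 7.10% of intronic summit windows. CACACAC stood in 1.82% of summit windows and 6.06% of flanks (exact McNemar test, adjusted p = 6.2e-04). Its shares were 1.62% and 6.76% over all reproducible summits, and 1.64% at intronic summits. Both motifs were thus rarer at summits over the whole list too. Of the 6-mers with 3 and with 4 G or C letters, 20.5% and 60.2% were called less often at summits.

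The core sites of Hr51's own family showed no difference that passed. AAGTCA stood in 41 summit windows (6.21%, interval 4.61 to 8.32%) and 27 flanks (4.09%, 2.83 to 5.89%; exact McNemar test, adjusted p = 0.30). AGGTCA stood in 20 summit windows (3.03%) and 10 flanks (1.52%; exact McNemar test, adjusted p = 0.30). In all reproducible summit windows the shares were 5.92% and 2.14%. The ratios of summit to flank were 1.52 for AAGTCA and 2 for AGGTCA. The median ratios of 6-mers with as many G or C letters (2 and 3) were 1.31 and 0.692. The ratios were not tested against those medians. The E-box CAGCTG (1.21% and 3.33%, adjusted p = 0.063) and CCGGAA (1.06% and 2.88%, adjusted p = 0.091) were next to the threshold in the exact McNemar test, both rarer at summits. CAGCTG passed in 4 of 8 alternatives (exact McNemar test, adjusted p from 0.0083 to 0.86). For the remaining motifs the adjusted p was 0.30 or higher. Among them, GAGAGAG passed in 1 of 8 alternatives, with the flank to the left (0.606% and 2.42%, exact McNemar test, adjusted p = 0.047). Over the 8 its adjusted p was 0.047 to 0.93. None of the 20 motifs differed between members and either other class past the threshold; the lowest adjusted p in Fisher's exact test was 0.066, for TAATTA as above, for the forkhead motif (0.909% of members and 2.76% of intronic summits) and for the AP-1 motif (1.97% and 4.21%). With the highest peaks of replicate 1 alone the forkhead motif (0.949% and 3.07%, Fisher's exact test, adjusted p = 0.033) and the AP-1 motif (1.11% and 3.62%, 0.014) passed against intronic summits. Over 6 alternatives the adjusted p was 0.033 to 0.58 for the forkhead motif and 0.014 to 0.88 for the AP-1 motif.

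**Figure D5:**
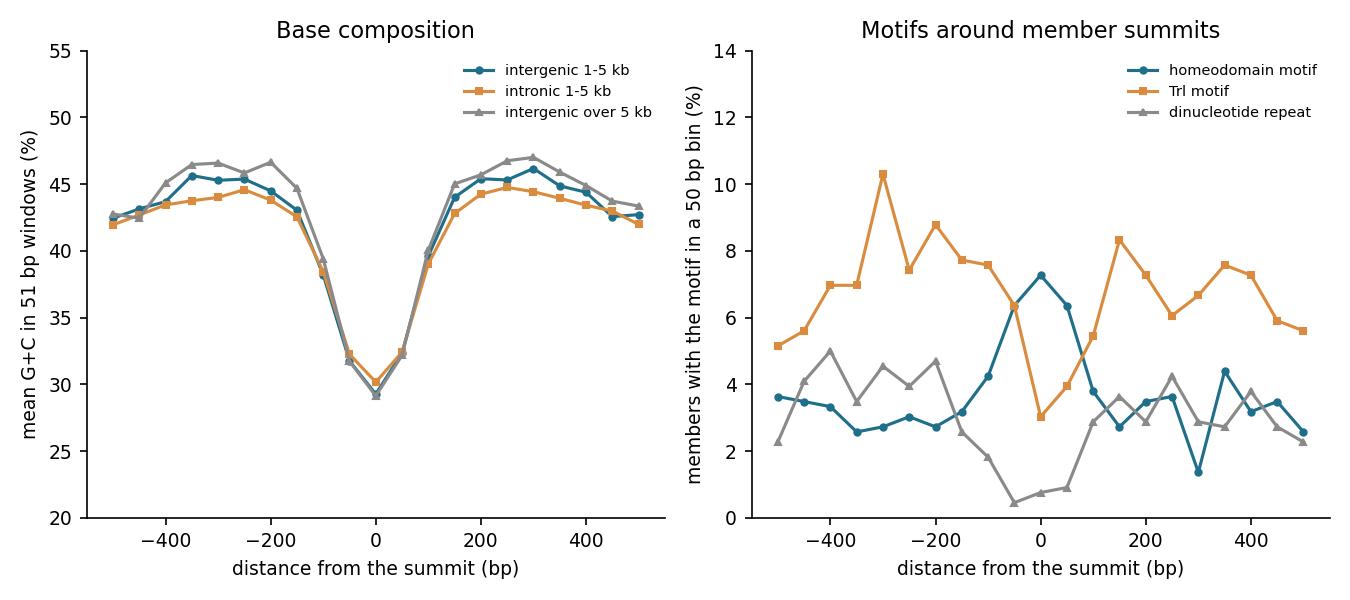
Left, mean G and C content in 51 bp windows (y axis, %) by distance from the summit in bp (x axis) for members, intronic summits at the same distance from a TSS and intergenic summits over 5 kb away; right, the share of members with a motif centred in each 50 bp bin (y axis, %), with the Trl motif being GAGAG and the dinucleotide repeat CACACAC. G and C content falls to 29.3% at member summits, where the homeodomain motif reaches 7.27% and the dinucleotide repeat 0.758%.

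Peaks of members were 102 to 850 bp wide, with a median of 276 bp against 320 bp for intronic summits, 253 bp for distant intergenic summits and 328 bp over all. Annotated transposable elements held 1 member summit, 1127 bp downstream of CG4593 on X (signal 205), chosen after its values were seen. At signals of 1000 or more there were 26 members (3.94%), and 4 were among the 100 highest reproducible summits.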

How the data were processed

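Hr51-eGFP was immunoprecipitated from whole embryos and the recovered DNA was sequenced (ChIP-seq) in 2 samples of 1 group, biological replicates 1 and 3. The deposited files are peak lists on dm6, per the labels: 30000 peaks for each replicate, 30000 for the pooled replicates, and 7229 reproducible peaks from an irreproducible discovery rate (IDR) step. Per the deposited notes each list came from alignments and 1 further alignment file shared by the lists. For the aligner, peak caller and settings, names and versions are not given in the sources used here. By the authors, a signal score was deposited for each peak, on a scale that is not stated. It was used to rank and describe peaks. No read numbers were used, so depth is unknown, and intervals cover counting of summits only.

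A summit was the peak start plus the deposited offset. Genes, transcripts and their start sites (TSSs) were taken from Ensembl release 115 without transposable elements, and sequence from the RefSeq dm6 genome. Gene coordinates were equal in both for 13944 of 13945 protein-coding genes. Members were reproducible summits in no gene body and 1001 to 5000 bp from the nearest TSS. Eligible DNA followed the same rule. Of 332 list entries, 6 symbols found no gene. The members, the 14 gene lists and the 20 motifs were chosen with earlier results of these data known.

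Replicate peaks were matched by an overlap of at least 1 bp, taking the nearest summit. Members were compared with intronic summits 1001 to 5000 bp and intergenic summits over 5000 bp from a TSS by Fisher's exact test, two-sided, in 50 tests. Motifs and 2080 6-mers, on both strands, were compared between the 101 bp window at each summit and one centred 300 bp to the right by the exact McNemar test, two-sided. P-values were adjusted by the Benjamini-Hochberg method in each family, with a threshold of 0.05. Summits share libraries, so these p-values measure counting over summits and not spread between embryo collections. Named loci were the 20 members of highest signal, the 3 strongest in each gene list, gaps with 4 or more members, and the 3 summits nearest each distance limit on either side; others are said to have been chosen after their values were seen. The loci of the ribosomal protein list are not reported here. The scripts were tested on simulated data (Python 3.11.15, numpy 2.4.6, scipy 1.17.1).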

Additional observations from a re-analysis of the deposited data

How the results depend on the processing

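No paired analysis was possible because both samples belong to 1 group. Values were recomputed with the highest peaks of 1 replicate in place of the reproducible list, with protein-coding genes only, with a lower limit of 2 kb, with the stronger peaks only, with other windows and flanks, and in other ways. The share of summits in the class was 9.13% and lay between 8.74% and 9.20% with 1 replicate; it was 8.80% with protein-coding genes only, 5.52% from 2 kb, 7.94% in the stronger 50% of peaks and 12.0% of pooled peaks. Density relative to all DNA was 0.903 and lay between 0.865 and 0.910 with 1 replicate; under the same alternatives it was 0.991, 0.823, 0.785 and, above 1, 1.19, and it was 0.810 without arm 3L, added after seeing the data. The share in the highest 25% of signal was 16.97%, between 17.1% and 17.4% with 1 replicate, 19.3% with protein-coding genes only and 15.04% from 2 kb. The upstream share was 63.5%, between 63.9% and 65.4% with 1 replicate, 69.3% with protein-coding genes only, 60.2% from 2 kb, 66.9% in the stronger peaks and 60.7% of pooled peaks. Of the comparisons with other classes by Fisher's exact test 2 passed; 4 passed with either replicate alone, among 46 tests because replicate overlap could not be computed there, and 4 with protein-coding genes only. The calls gained are given with their values above. Without chromosome X, added after seeing the data, 0 of 48 passed, with 6 at an unadjusted p under 0.05. The difference on X kept its call in the 5 alternatives that could test it. That in the highest 25% of signal lost it in Fisher's exact test from 2 kb (adjusted p = 0.075) and in the stronger peaks (0.32) besides the losses given above; the difference was -6.70 and -6.53 percentage points there, against -6.24, with 399 and 287 members in place of 660. Motif calls numbered 3, and 5 with the flank to the left; between 3 and 4 with 1 replicate. TAATTA kept its call in the 8 alternatives tried. In the exact McNemar test GAGAG lost it in the stronger peaks (adjusted p = 0.42), and CACACAC from 2 kb (0.078), both with fewer members. Calls of 6-mers numbered 949, 423 in the stronger peaks, with 287 members, and between 712 and 982 with 1 replicate. Read depth is unknown, the scale of the signal is not stated, and 2 replicates of 1 stage give no test between conditions.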
